A study of Mus musculus with 8 samples.

Results

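The acyl-CoA thioesterases are enzymes that split a fatty acyl-CoA into the free fatty acid and coenzyme A. They were followed here through 10 genes chosen by name, Acot1, Acot2, Acot3, Acot4, Acot7, Acot8, Acot9, Acot11, Acot13 and Them4. All 10 were among the 33641 genes in the deposited tables, and all 10 were among the 14851 genes that passed a filter on low counts and were tested. Fatty acids are joined to coenzyme A by acyl-CoA synthetases before they are oxidized or built into lipid, and thioesterases run this step backwards, so that the levels of acyl-CoA, free acid and free coenzyme A depend on both. The type I enzymes (Acot1 to Acot4 among these genes) are close copies of each other placed in the cytosol, mitochondria or peroxisomes, and several are known targets of the fatty acid receptor PPARα in liver. The type II enzymes share a hotdog fold and include Acot11, also called brown fat-inducible thioesterase, whose transcript is known to respond to cold in brown adipose tissue (BAT).

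Poly(A) RNA was sequenced from interscapular BAT of 8 C57BL/6 mice aged 28 weeks, to ask how adipocyte deletion of the RNA-binding protein HuR alters gene expression. The labels assign A7, A8 and A12 to wild-type control and A24, A25, A26, A29 and A31 to the HuR knockout, Adipo-HuR−/−, in which a floxed HuR gene is removed by a Cre recombinase driven by the adiponectin promoter. Cells of BAT that do not make adiponectin therefore keep the gene, and the control animals of the study were littermates that were wild type with Cre, or floxed on 1 or both alleles without Cre. The legend of the study gives 5 control and 3 Adipo-HuR−/− animals where the labels give 3 and 5, and the groups below follow the labels. Total estimated counts were 60622522 for A7, 51751002 for A8 and 50673814 for A12, against 18264754 for A24, 17558090 for A25, 67498055 for A26, 50893173 for A29 and 58727739 for A31. A24 and A25, both labelled Adipo-HuR−/−, were the shallowest libraries.

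Expression is given as CPM, counts brought to a shared library total with edgeR's TMM scaling. Elavl1, the gene of HuR, was measured at 50.6 CPM for A7, 48.0 for A8 and 49.2 for A12. In the libraries labelled Adipo-HuR−/− it stood at 61.9 for A24, 47.3 for A25, 43.4 for A26, 61.3 for A29 and 61.2 for A31. The targeted gene thus showed no decrease with the knockout label, with a log2 fold change of 0.16 (SE 0.162, adjusted p = 0.667) in edgeR's quasi-likelihood test. The gene total did not bear out the labels, so the groups are named by their labels throughout and every direction below rests on them. A positive log2 fold change means a higher level in the libraries labelled Adipo-HuR−/−.

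The tissue label was checked against marker genes. The 11 brown adipocyte markers summed to 16258 CPM for A7, 34090.3 for A8 and 23682 for A12, and to 28772 for A24, 15839 for A25, 20788 for A26, 21052 for A29 and 25321 for A31. None of these 11 was at 0 in any library, Fabp4 was the most abundant, and none passed the test. The 15 skeletal muscle markers summed to 3542 CPM for A7, 2398 for A8 and 59.0 for A12 among the controls. They summed to 51.5 for A24, 33.0 for A25, 44.8 for A26, 46.7 for A29 and 407 for A31 under the Adipo-HuR−/− label. The sums were therefore high in A7, A8 and A31 and low in the other 5 libraries, and Myh4, the most abundant of the 15, was at 0 in A25, A26 and A29. All 15 had a lower fitted level in the libraries labelled Adipo-HuR−/− (median log2 fold change −4.66), and Myh7 and Myl1, both contractile protein genes, passed the threshold. For these, A31 did not stand with A7 and A8, as Myl1 was at 47.9 CPM for A31 and 52.4 for A12, against 227 for A7 and 236 for A8, and Myh7 was at 0.197 for A31, against 60.7 for A7 and 9.29 for A8. Tnnt1 and Tnni1, at 0.439 and 0.106 CPM for A31, lay within the range of the other 5 libraries, as Myl1 did. Myh7 for A31 was above that range, in which its highest value was 0.0947 CPM for A29. The part of muscle tissue in the thioesterase values was not tested beyond the alternatives given with them, and in these bulk samples fewer cells of a type and less RNA per cell cannot be told apart.

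None of the 10 thioesterases passed the threshold of an adjusted p of at most 0.05 and a fold change of at least 1.5 in edgeR's quasi-likelihood test, where 105 of 14851 genes (0.707%) did. At an unadjusted p under 0.05 there were 2 of 10, Acot8 and Acot9, against 17.0% of all genes tested, and with total-count scaling Acot8 and Them4, against 20.1%. With DESeq2's Wald test 1 of 10 passed, Acot8, against 5.51% of all genes, and with edgeR's likelihood ratio test also Acot8, against 4.41%. With limma voom it was 0 of 10, against 1.06% of all genes, and with total-count scaling 1 of 10, again Acot8, against 0.815%. By TMM CPM, control and Adipo-HuR−/− libraries were fully separated for 1 of the 10, Acot8, which was higher, and for 0 of 10 in the lower direction. The same was seen for 11.5% of all genes in either direction and for 5.37% with higher and 6.09% with lower values under the Adipo-HuR−/− label, so the count among the thioesterases was close to that of the whole transcriptome. Other scalings, chosen after the data were seen, added Them4. By TPM 2 of 10 were separated and higher and 0 of 10 lower, against 7.75% of all genes in either direction, 6.71% higher and 1.03% lower. By counts over total counts it was also 2 of 10 higher and 0 of 10 lower, against 13.4% of all genes in either direction, 11.9% higher and 1.45% lower. Fitted log2 fold changes were above 0 for 4 and below 0 for 6 of the 10, with a median of −0.14 beside 0.00098 over all genes.

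**Figure D1:**
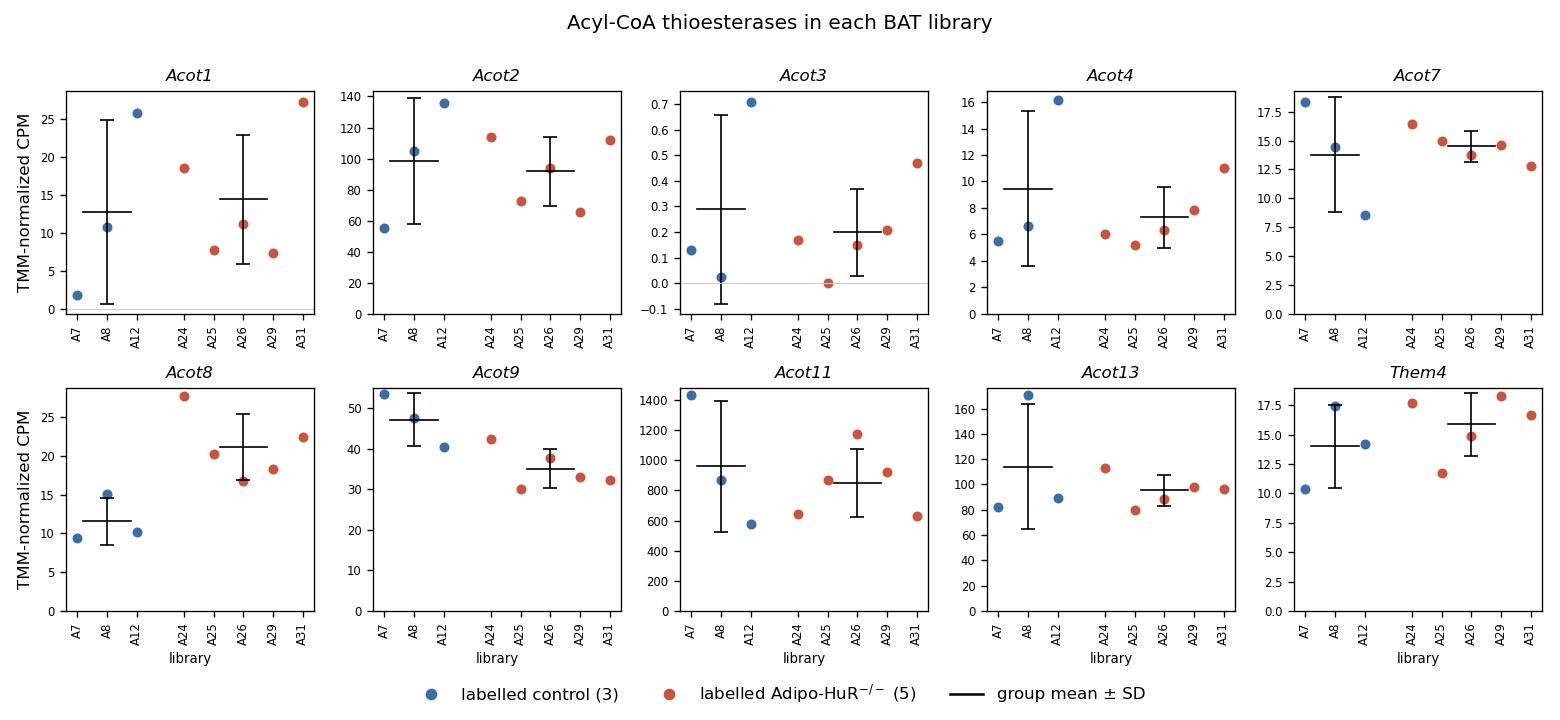
TMM-normalized CPM of the 10 thioesterase genes in each BAT library, with blue points for the 3 libraries labelled control, red points for the 5 labelled Adipo-HuR−/−, and black bars for each group's mean ± SD. Acot8 is the gene whose red points, 16.8 to 27.7 CPM, all lie above its blue points, 9.46 to 15.1.

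Levels were compared between genes per transcript length, as TPM, the count divided by transcript length and scaled to a common total. Acot11 had the highest mean over the 8 libraries, 228 ± 103 TPM (SD, n = 8), followed by Acot13, which encodes a small thioesterase of the mitochondrial surface, with 190.4 ± 16.4. The order of these genes was not settled, as Acot11 was above Acot13 in 4 of the 8 libraries. Acot2 followed at 58.6 ± 15.7 TPM, below Acot13 in all 8 libraries, and then Acot9 at 33.0 ± 7.91 and Acot8 at 21.4 ± 8.18. Acot7 had 13.8 ± 4.27 TPM, Them4 11.6 ± 1.95 and Acot1 8.31 ± 5.81, and the ranges of these neighbours overlapped. Acot4 at 2.15 ± 0.825 TPM and Acot3 at 0.162 ± 0.166 closed the order, and Acot4 was above Acot3 in all 8 libraries. Together the 10 genes summed to between 463 and 755 TPM in a library, with 561 ± 168 in control and 571 ± 60.5 in Adipo-HuR−/−. Acot11 and Acot13 made up 38.6% and 34.5% of that sum on average, whereas the type I genes other than Acot2 each gave under 2% of it on average.

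**Figure D2:**
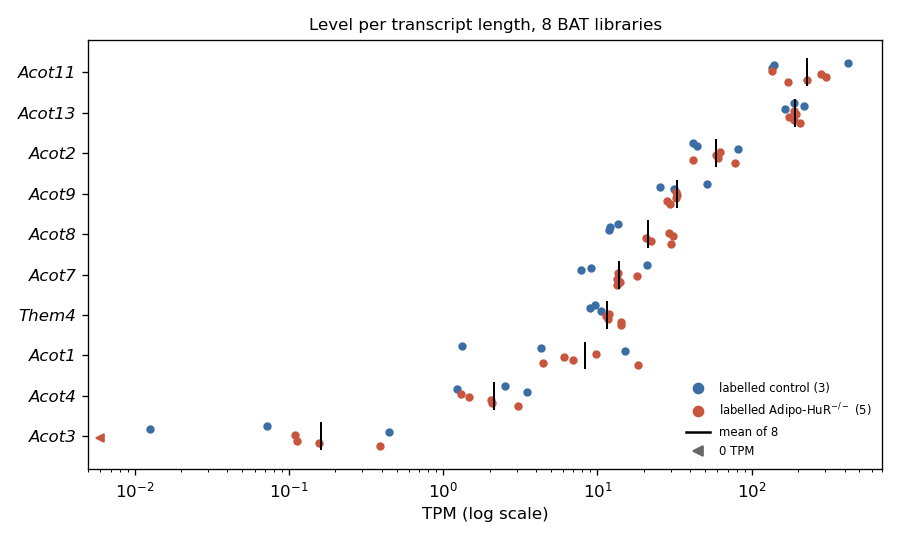
Level per transcript length (TPM, log axis) of the 10 thioesterase genes in the 8 BAT libraries, ordered by their mean (black line), with blue points labelled control and red points labelled Adipo-HuR−/−. Acot11 and Acot13 lead with means of 228 and 190.4 TPM, and Acot3 is lowest at 0.162, with 0 in A25 drawn as a triangle.

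The type I genes lie side by side on chromosome 12 of GRCm38, where Acot2, Acot1, Acot4, Acot3, Acot5 and Acot6 fill 123489 bases from 83987861 to 84111349, all on the plus strand. Acot2, the mitochondrial member, was by far the most abundant of them per length. Its level was 55.3 CPM for A7, 105 for A8 and 135 for A12 in the libraries labelled control and 114 for A24, 72.9 for A25, 93.8 for A26, 65.9 for A29 and 112 for A31 in those labelled Adipo-HuR−/−. A7 was lowest and A12 highest, both of them control, and the libraries labelled Adipo-HuR−/− lay between them. The log2 fold change was −0.10 (SE 0.286, adjusted p = 0.890), and its sign turned with total-count scaling (0.14) and without A12 (0.19).

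Acot1, the cytosolic member, varied more between animals than the other 8 members with counts in every library, with its highest level 15.1 times its lowest, and 3.74 times without A7, when Acot4 followed at 3.10. It measured 1.81 CPM for A7, 10.7 for A8 and 25.8 for A12 in control, and 18.6 for A24, 7.83 for A25, 11.2 for A26, 7.31 for A29 and 27.4 for A31 in Adipo-HuR−/−. A12 and A31, with opposite labels, were the highest and A7 was the lowest, so the spread within each group exceeded the difference between the group means of 12.8 and 14.5 CPM. Its log2 fold change of 0.18 (SE 0.681, adjusted p = 0.919) turned negative without A7 (−0.34), without A31 (−0.19) and without A7, A8 and A31 (−1.21), and was 1.22 without A12.

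Acot4 and Acot3 encode peroxisomal type I enzymes, known for the hydrolysis of dicarboxylyl-CoA and of long-chain acyl-CoA respectively. Acot4 was found at 5.51 CPM for A7, 6.66 for A8 and 16.2 for A12 in control and at 6.03 for A24, 5.22 for A25, 6.34 for A26, 7.84 for A29 and 11.0 for A31 in Adipo-HuR−/−. As with Acot1, A12 and A31 were the libraries with the most Acot4, and the other 6 lay together between 5.22 and 7.84 CPM. The fold change on the log2 scale was −0.37 (SE 0.361, adjusted p = 0.656), 0.27 without A12, and −1.34 (adjusted p = 0.180) without the libraries with the highest muscle sums, A7, A8 and A31, which leaves A12 as the lone control. For Acot3 the deposited counts were only 8 for A7, 1 for A8 and 34 for A12, and 3 for A24, 0 for A25, 10 for A26, 11 for A29 and 31 for A31. A12 and A31 again held the most, and the groups overlapped. Its log2 fold change was −0.42 (SE 0.930, adjusted p = 0.859), 1.35 without A12, and −2.32 (adjusted p = 0.348) without A7, A8 and A31.

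The sequences of Acot1 and Acot2 limit how well their reads can be told apart. In the transcript models of GENCODE M21, 95.6% of 1232 aligned coding bases were identical between Acot1 and Acot2, and 273 coding bases in a row were the same. Of all words of 31 bases in the Acot1 transcript, 29.2% also occurred in Acot2 and 13.1% in Acot5. The stretch of aligned coding sequence with the most differences is printed to show how alike the copies are even there, with differing bases in capitals. It covers coding bases 767 to 886 of Acot1 and 890 to 1009 of Acot2, and 106 bases are identical and 14 differ.
Acot1: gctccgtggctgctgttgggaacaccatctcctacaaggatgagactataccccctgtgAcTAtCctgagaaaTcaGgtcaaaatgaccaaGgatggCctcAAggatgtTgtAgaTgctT
Acot2: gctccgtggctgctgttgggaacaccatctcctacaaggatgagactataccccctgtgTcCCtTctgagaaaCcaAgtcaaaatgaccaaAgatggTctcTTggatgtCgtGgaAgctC
The deposited estimates split reads that match both genes, which leaves the share of each uncertain. Acot1 took 3.17% for A7, 9.28% for A8 and 16.0% for A12 of the summed counts of Acot1 and Acot2 in control. In Adipo-HuR−/− it took 14.0% for A24, 9.70% for A25, 10.7% for A26, 9.98% for A29 and 19.7% for A31. The share was low in A7 and high in A31 and A12, in the same order as the extremes of Acot1 itself. With both genes summed to 1 feature, the group means were 111.4 ± 52.2 CPM in control (SD, n = 3) and 106.2 ± 29.7 in Adipo-HuR−/− (SD, n = 5), with a log2 fold change of −0.07 (adjusted p = 0.936).

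Acot8 encodes a peroxisomal type II thioesterase of broad substrate range, and lies on the minus strand of chromosome 2, positions 164792765 to 164804882 of GRCm38. Among the controls it was measured at 9.46 CPM for A7, 15.1 for A8 and 10.2 for A12. Under the Adipo-HuR−/− label the level was 27.7 for A24, 20.2 for A25, 16.8 for A26, 18.4 for A29 and 22.5 for A31. Every library labelled Adipo-HuR−/− was above every control, although A26 and the highest control, A8, were close to each other. The means were 11.6 ± 3.04 CPM in control (SD, n = 3) and 21.1 ± 4.28 in Adipo-HuR−/− (SD, n = 5), and the log2 fold change was 0.86 (SE 0.217, adjusted p = 0.0920). Acot8 therefore did not pass the threshold, and it was the member with the smallest p. The log2 fold change lay between 0.72 and 1.13 over 20 alternatives, with adjusted p between 0.0108 and 0.313. It passed with total-count scaling (1.13, adjusted p = 0.0401), under which the median of all genes was itself shifted by 0.23, and with DESeq2's Wald test (adjusted p = 0.0108) and edgeR's likelihood ratio test (adjusted p = 0.0229). With the skeletal muscle score as a covariate the log2 fold change was 0.98 (adjusted p = 0.265), and without A7, A8 and A31, which leaves a single control, it was 1.01 (adjusted p = 0.313). Without the shallow A24 and A25 it was 0.72 (adjusted p = 0.235).

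The main coding transcript of Acot8, with 78.9% of the gene's counts, gave 7.12 for A7, 12.3 for A8 and 8.02 for A12 as CPM in control. It gave 25.7 for A24, 15.6 for A25, 12.8 for A26, 13.6 for A29 and 18.1 for A31 in Adipo-HuR−/−. The groups did not overlap for this transcript either. A transcript with a retained intron, at 13.7% of the counts, ranged from 1.55 to 1.83 CPM in control. In Adipo-HuR−/− it was at 0.903 for the shallow A24 and between 2.66 and 3.22 in the other libraries. Of the 1997 exonic bases of Acot8, 246 overlap Snx21 on the opposite strand, and where counting did not use the strand the reads there cannot be told apart.

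Among the mitochondrial members, Acot9 encodes a matrix thioesterase of short- and long-chain acyl-CoA. It stood at 53.5 CPM for A7, 47.7 for A8 and 40.4 for A12 in control and 42.4 for A24, 30.1 for A25, 37.7 for A26, 33.0 for A29 and 32.4 for A31 in Adipo-HuR−/−. Only A24 among the libraries labelled Adipo-HuR−/− was above the lowest control, A12, and A7 was the highest of all. The means were 47.2 ± 6.54 CPM in control (SD, n = 3) and 35.1 ± 4.90 in Adipo-HuR−/− (SD, n = 5), and the log2 fold change was −0.43 (SE 0.159, adjusted p = 0.204). It was negative in each of the count fits run as alternatives, from −0.60 to −0.18, and passed the threshold in none, while with the muscle score as a covariate it was −0.33 (adjusted p = 0.585). By TPM the order was another, with 51.6 for A7, 25.5 for A8 and 31.4 for A12 in control, and 32.3 for A24, 32.8 for A25, 32.5 for A26, 28.3 for A29 and 29.8 for A31 in Adipo-HuR−/−. On that scale, which has no TMM scaling, A7 alone lay above the libraries labelled Adipo-HuR−/−, and the control A8 was the lowest of all. Acot10, an intronless copy of Acot9, was at 0 in all 8 libraries, although 36.9% of the 31-base words of Acot9 also occur in it.

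The transcripts of Acot9 shared out differently between the groups. Its main coding transcript held 96.1% for A7, 96.6% for A8 and 96.3% for A12 of the gene's counts in control, and 82.9% for A24, 87.1% for A25, 89.3% for A26, 83.9% for A29 and 85.5% for A31 in Adipo-HuR−/−. A transcript annotated for nonsense-mediated decay held 2.64% for A7, 2.15% for A8 and 1.76% for A12 in control, and 10.5% for A24, 9.30% for A25, 7.36% for A26, 12.1% for A29 and 11.1% for A31 in Adipo-HuR−/−. In both cases the groups did not overlap, with the coding share lower and the decay share higher in every library labelled Adipo-HuR−/−. As TMM CPM the main coding transcript ranged from 38.9 to 51.4 in control and from 26.2 to 35.1 in Adipo-HuR−/−. The decay transcript ranged from 0.713 to 1.41 in control and from 2.77 to 4.45 in Adipo-HuR−/−. Acot9 was picked out after its values were seen. Shares were compared for transcripts with at least 1% and under 99% of their gene, in genes with counts in every library, which left 15 transcripts of 5 thioesterases. They did not overlap for 2 of the 15, both of Acot9, against 4.86% of 40156 such transcripts in all genes. As shares of the same gene, these 2 are not independent, since a rise in one lowers the other. As reads that fit several transcripts had been divided before deposition, these shares are uncertain and no test was run on them.

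Acot13, also known as Them2, forms a complex with the phosphatidylcholine transfer protein Pctp. Its level was 82.4 CPM for A7, 171 for A8 and 89.3 for A12 in control and 113 for A24, 79.7 for A25, 88.4 for A26, 98.2 for A29 and 96.6 for A31 in Adipo-HuR−/−. A8 was the highest and the other 7 libraries of both groups lay together, from 79.7 to 113 CPM. A log2 fold change of −0.26 (SE 0.239, adjusted p = 0.629) was fitted, which became 0.16 without A8 and 0.02 with total-count scaling. By TPM Acot13 was the steadiest of the abundant members, at 165 to 218 TPM. By TMM CPM it was not, with its highest level 2.14 times its lowest, beside 1.78 times for Acot9.

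Them4 encodes a mitochondrial thioesterase that is also known to bind the kinase Akt. It was found at 10.3 CPM for A7, 17.4 for A8 and 14.2 for A12 in control and at 17.7 for A24, 11.7 for A25, 14.9 for A26, 18.3 for A29 and 16.7 for A31 in Adipo-HuR−/−. On this scale the groups overlapped over most of their range, and A7 was the lowest library. Per length the control libraries had 9.59 TPM for A7, 8.91 for A8 and 10.5 for A12, and those labelled Adipo-HuR−/− had 11.9 for A24, 11.4 for A25, 11.8 for A26, 14.3 for A29 and 14.2 for A31. By TPM every library labelled Adipo-HuR−/− was thus above every control, as it was by counts over total counts, with at most 13.4 CPM in control and at least 14.1 in Adipo-HuR−/− on that scale. The log2 fold change with TMM scaling was 0.18 (SE 0.206, adjusted p = 0.705), and it was above 0 in all 20 alternatives, between 0.0027 and 0.43, lowest without A7 and highest with total-count scaling (adjusted p = 0.218).

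Acot11 encodes the brown fat-inducible thioesterase, which carries a lipid-binding START domain and acts on long-chain acyl-CoA. It lies on the minus strand of chromosome 4, positions 106744555 to 106804998 of GRCm38. Libraries labelled control held 1432 CPM for A7, 868 for A8 and 577 for A12, and libraries labelled Adipo-HuR−/− held 644 for A24, 869 for A25, 1173 for A26, 922 for A29 and 633 for A31. A7 was the highest and A12 the lowest, both control, so that the 5 libraries labelled Adipo-HuR−/− fell within the control range. The log2 fold change of −0.18 (SE 0.306, adjusted p = 0.818) became 0.23 without A7, 0.02 with total-count scaling and 0.17 with the muscle score as a covariate. A single coding transcript of 5689 bases held 99.1% of the Acot11 counts and at least 97.5% in each library. Of 6056 exonic bases, 1263 overlap Fam151a on the opposite strand.

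Acot7, a cytosolic thioesterase known chiefly from brain, lies on the same chromosome from 152178134 to 152271855 on the plus strand. It was at 18.4 CPM for A7, 14.5 for A8 and 8.53 for A12 in control and 16.4 for A24, 14.9 for A25, 13.8 for A26, 14.6 for A29 and 12.8 for A31 in Adipo-HuR−/−. The controls A7 and A12 formed both ends of the range, with the libraries labelled Adipo-HuR−/− between them. Its log2 fold change was 0.07 (SE 0.224, adjusted p = 0.904), −0.18 without A12, and 0.81 (adjusted p = 0.315) without A7, A8 and A31. The most used of its coding transcripts had between 35.9% of the counts in A12 and 94.8% in A24, and another had 55.9% in A12 but under 1% in A24, A26 and A31, so the division of reads among the Acot7 isoforms was uneven across animals of both groups.

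Genes with the most similar profile were sought for Acot2 and Acot11 by the root mean square difference of their centred log2 CPM over the 8 libraries, among 14850 other genes. For Acot2 they were Abhd5, a co-activator of lipid droplet triglyceride lipase (0.149), Cd82, a tetraspanin (0.155), and Hsd17b11, a lipid droplet dehydrogenase (0.159), where the SD of Acot2 itself was 0.447. Abhd5 was at 98.8 CPM for A7, 167 for A8, 209 for A12, 155 for A24, 117 for A25, 151 for A26, 131 for A29 and 179.9 for A31. As for Acot2, A7 was lowest and A12 highest. For Acot11 they were Map3k1, a signalling kinase (0.145), Lpin1, a phosphatidate phosphatase (0.154), and Ttpa, a vitamin E transfer protein (0.159), where the SD of Acot11 was 0.455. Lpin1 was at 702 CPM for A7, 384 for A8, 334 for A12, 280.2 for A24, 423 for A25, 670.1 for A26, 416 for A29 and 342 for A31, high in A7 and A26 as Acot11 was.

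Further thioesterases formed a list of 14 genes, 10 of them tested, and none passed the threshold in either direction. The median log2 fold change of the 10 was 0.067. Hibch, a hydrolase of valine breakdown and the most abundant, had 285 ± 45.7 CPM in control (SD, n = 3) and 246 ± 44.6 in Adipo-HuR−/− (SD, n = 5) and a log2 fold change of −0.21 (SE 0.189, adjusted p = 0.620). Lypla1, a protein depalmitoylase with the smallest p in the list, had 91.3 ± 11.6 CPM in control (SD, n = 3) and 66.6 ± 4.94 in Adipo-HuR−/− (SD, n = 5) and a log2 fold change of −0.46 (SE 0.139, adjusted p = 0.133). By TMM CPM library values were fully separated for 3 of the 10, beside 11.5% of all genes, with Lypla1 and the lysosomal Ppt1 lower and Acot12 higher. By TPM, which has no TMM scaling, 6.71% of all genes were separated and higher and 1.03% lower. By TMM CPM these shares were 5.37% and 6.09%. On the TPM scale the groups overlapped for Lypla1 and Ppt1 and not for Acot12. Ppt1 is named after its values were seen.

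Acot12, a cytosolic thioesterase of acetyl-CoA on chromosome 13, is named after its values were seen. Control libraries held 0.518 CPM for A7, 3.70 for A8 and 4.30 for A12, and libraries labelled Adipo-HuR−/− held 10.7 for A24, 5.69 for A25, 10.3 for A26, 7.33 for A29 and 9.95 for A31. Each library labelled Adipo-HuR−/− was above each control, and A7 was far below the rest with 32 counts. The log2 fold change was 1.64 (SE 0.543, adjusted p = 0.163), between 0.98 and 2.25 over 20 alternatives, and it passed the threshold with DESeq2's Wald test (adjusted p = 0.0234) and in no other of them. Without A7 it was 1.13 (adjusted p = 0.162). Acot12 is known chiefly from liver. The 5 hepatocyte markers, led by Cyp2e1, summed to 3.84 CPM for A7, 30.3 for A8 and 37.4 for A12 in control and 67.6 for A24, 66.9 for A25, 90.6 for A26, 34.5 for A29 and 79.3 for A31 in Adipo-HuR−/−, with Alb and Ttr below the filter on low counts. Most of each sum came from Cyp2e1 alone. Its level was 3.32 CPM for A7, 28.8 for A8 and 35.3 for A12 in control. Under the Adipo-HuR−/− label it was 63.7 for A24, 66.0 for A25, 89.2 for A26, 30.9 for A29 and 76.9 for A31. A29 was within the control range for these markers, and the other libraries labelled Adipo-HuR−/− were above it. Their part in the Acot12 values was not tested. Levels of the remaining copies on chromosome 12 were low, with 0.0972 to 0.56 CPM for Acot5 and 2.22 to 6.42 for Acot6 across the 8 libraries.

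The enzymes that make acyl-CoA, the substrate of the thioesterases, were 15 acyl-CoA synthetase genes, 14 of them tested, and none passed the threshold, with a median log2 fold change of −0.08. Acsl1, the long-chain synthetase with the highest level, had 2455 ± 699.7 CPM in control (SD, n = 3) and 1897 ± 358 in Adipo-HuR−/− (SD, n = 5) and a log2 fold change of −0.37 (SE 0.237, adjusted p = 0.464). Acsm3, a mitochondrial medium-chain synthetase with the smallest p, was at 47.0 CPM for A7, 75.3 for A8 and 53.4 for A12 in control. In Adipo-HuR−/− it was at 96.9 for A24, 128 for A25, 157 for A26, 75.7 for A29 and 116 for A31. Its groups did not overlap, though A8 and A29 were nearly level, and the log2 fold change was 0.97 (SE 0.253, adjusted p = 0.0976). Full separation by TMM CPM was seen for 2 of the 14, Acsm3 and Acsm5, beside 11.5% of all genes. Both were higher under the Adipo-HuR−/− label. They were separated by TPM as well, where 6.71% of all genes were separated and higher and 1.03% lower. Acsm5 is named after its values were seen.

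Of 11 genes of acyl-CoA binding and carnitine-dependent entry into mitochondria, none passed the threshold and none had groups that did not overlap (median log2 fold change −0.00096). Dbi, the acyl-CoA binding protein and the most abundant, had 1576 ± 505 CPM in control (SD, n = 3) and 1575 ± 435 in Adipo-HuR−/− (SD, n = 5). Acbd5, a peroxisomal acyl-CoA binding protein, had the smallest p of this list and a log2 fold change of −0.29 (SE 0.153, adjusted p = 0.361). The 11 genes of coenzyme A synthesis and breakdown held none past the threshold either, with a median of 0.031. Pank1, the pantothenate kinase with the highest level, had a log2 fold change of 0.23 (SE 0.218, adjusted p = 0.633), and Coasy, the last enzyme of coenzyme A synthesis, had 192 ± 32.2 CPM in control (SD, n = 3) and 144 ± 10.9 in Adipo-HuR−/− (SD, n = 5) and a log2 fold change of −0.41 (SE 0.155, adjusted p = 0.214). Full separation by TMM CPM was seen for 2 of the 11, beside 11.5% of all genes, with Coasy lower and Slc25a42, the mitochondrial coenzyme A carrier, higher under the Adipo-HuR−/− label. For Coasy A12 and A24 were nearly level at 155 CPM. Its groups overlapped by TPM, where 1.03% of all genes were separated and lower and 6.71% higher. Slc25a42, named after its values were seen, was also separated by TPM and had a log2 fold change of 0.52 (SE 0.201, adjusted p = 0.219).

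Since type I thioesterases are textbook targets of PPARα, 17 further target genes were set beside them. None passed the threshold, 11 had a fitted log2 fold change above 0 and 6 below, and the median was 0.043. Acadm, the medium-chain acyl-CoA dehydrogenase, led in level with 2094 ± 564 CPM in control (SD, n = 3) and 2465 ± 384 in Adipo-HuR−/− (SD, n = 5) and a log2 fold change of 0.24 (SE 0.232, adjusted p = 0.657). The 8 receptors and partners (among them Ppara, Pparg, Rxra, Pctp, Akt1 and Akt2) held none past the threshold, with a median of 0.10. Akt2 was the most abundant with a log2 fold change of 0.04 (SE 0.155, adjusted p = 0.914), and Pparg, with the smallest p, had −0.38 (SE 0.189, adjusted p = 0.346). By TMM CPM 1 of the 8 was fully separated, beside 11.5% of all genes, Akt1, which was higher under the Adipo-HuR−/− label and overlapped by TPM, and which is named after its values were seen.

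Promoter windows of RefSeq (GRCm38.p6) were matched for 9 of the 10 thioesterases, as 11 windows. They were searched on both strands for AGGTCA, the recognition hexamer of nuclear receptors, and for a pair of it in the same direction with 1 base between, as PPAR-RXR binds. The hexamer occurred in 2 of the 9 genes, Acot4 and Acot3, against 18.1% of 27025 genes with a window. Both windows of Acot3 overlap and hold the same single site. The pair occurred in none of the 11 windows and in 0.0396% of 32851 windows of all genes. Only exact copies were searched, and as they are this rare, their absence from 11 windows says little. Both sites are shown as the matches found, and the windows of the other type I copies, Acot1 and Acot2, held none. The site of Acot4 lies 13 bases before the start of its gene, and that of Acot3 18 bases after the start of its own. With the flanking bases, the printed stretches cover chr12:84038356-84038381 for Acot4 and chr12:84052152-84052177 for Acot3, on the plus strand. The hexamer, read from the other strand, is in capitals.
Acot4: ccccgaagcaTGACCTttggccggtc
Acot3: tattagctctTGACCTtgtctgtctg
A match describes these letters in the window and is not a measured binding site.

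HuR is known to bind AU-rich stretches of 3′ untranslated regions, so AUUUA was counted in the 3′ untranslated region of each thioesterase's most used transcript, a description chosen after the expression values were seen. It occurred in 6 of the 10 and in 66.3% of 13448 genes tested. Acot1 held 4 copies in 992 bases, and 14.6% of genes with a region of similar length held as many or more. Acot4 held 5 in 4805 bases and Acot11 3 in 3774 bases, where the median of genes of similar length was 8 and 6. Acot3, Acot7 and Them4 held 1 each. Acot2, Acot8, Acot9 and Acot13 held 0, in 793, 124, 220 and 87 bases. Of genes with a region of similar length, 65.7% held the motif for Acot2, 19.7% for Acot8, 29.2% for Acot9 and 14.8% for Acot13. Acot8, the gene with the smallest p among the thioesterases, had no copy of the motif in its annotated 3′ region.

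Other cell types were followed by their marker lists, and apart from skeletal muscle none of their genes passed the threshold. The 8 macrophage markers, led by Lyz2, summed to 115 CPM for A7, 40.4 for A8 and 146 for A12 in control and 136 for A24, 99.2 for A25, 77.8 for A26, 70.9 for A29 and 78.2 for A31 in Adipo-HuR−/−. The 6 endothelial markers, led by Cdh5, summed to 401 CPM for A7, 339 for A8 and 437 for A12 and to 306 for A24, 409.8 for A25, 477 for A26, 515 for A29 and 488 for A31. These sums overlapped between the groups. Fitted log2 fold changes were above 0 for 6 of 6 endothelial markers (median 0.21), and for 2 of 6 (−0.08) without A7, A8 and A31. For macrophage markers they were below 0 for 7 of 8 (median −0.23), and for 8 of 8 (−0.57) without these libraries, but without A12 they were above 0 for 5 of 8 (0.09) and without A7 for 4 of 8 (−0.03). They were above 0 for 4 of 5 lymphocyte markers (median 0.51), 3 of 5 Schwann cell markers (0.21) and 1 of 3 white adipocyte markers (−0.54), and without A7, A8 and A31 for 5 of 6 (0.97), 3 of 5 (0.52) and 4 of 4 (0.39). Total-count scaling put 4 of 8 macrophage markers below 0. Sums of the 5 white adipocyte markers lay between 25.2 and 72.8 CPM, with Hoxc10 at 0 in all 8 libraries. Those of the 6 lymphocyte markers, led by Cd79a, were between 0.961 and 2.35 CPM. The 5 Schwann cell markers, led by Mbp, summed to between 37.1 and 60.9 CPM. Of the 27 genes of these 5 lists that were tested, 3 were fully separated by TMM CPM (11.1%, beside 11.5% of all genes), all higher under the Adipo-HuR−/− label. They were the endothelial Pecam1, with a log2 fold change of 0.31 (SE 0.151, adjusted p = 0.331), the Schwann cell gene Sox10, with 0.92 (SE 0.337, adjusted p = 0.201), and the T cell gene Cd3e, with 1.40 (SE 0.485, adjusted p = 0.178), each named after its values were seen. By TPM the groups overlapped for Pecam1 and Cd3e, and the part of these cells in the thioesterase values was not tested.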

How the data were processed

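Estimated counts of each transcript, not normalized, were deposited by the authors for the 8 BAT libraries on GRCm38. Read mapping in the study used CLC Genomics Workbench, and the program that wrote these counts is not given in the sources used here. Counts were summed by gene symbol, rounded to whole numbers, filtered by filterByExpr, scaled by TMM and compared by the quasi-likelihood F-test of edgeR 4.0.16 in R 4.3.3, with Benjamini-Hochberg adjustment over all genes tested. The standard error (SE) is the size of the log2 fold change divided by the root of F. TPM used transcript lengths of GENCODE M21, which also gave positions, exons and sequences. DESeq2 1.42.0, limma 3.58.1, other filters, copies summed, the muscle score as covariate and libraries left out were tried as alternatives. No pair of libraries in a group agreed within counting noise (lowest chi-square per degree of freedom 88.6).

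The thioesterases, gene lists and alternatives were chosen with earlier results of these data known, and Acot8 and Acot12 belong to genes the study itself listed, so their choice was not independent. Named are all members and, of each pathway list, genes past the threshold, the most abundant and the one with the smallest p, beside the copies Acot5, Acot6 and Acot10 and genes with groups that did not overlap, which the text marks as named after their values were seen. The result of 1 gene is not reported here. Members were also compared by 31-base words and aligned with Biopython. Protein sequences were not used here.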

Additional observations from a re-analysis of the deposited data

How the results depend on the processing

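The number of genes past the threshold, 105 with edgeR's quasi-likelihood test, was 818 with DESeq2's Wald test, 655 with the likelihood ratio test, 469 at an adjusted p of at most 0.1, 16 for the transcript with the highest count, 15 with the muscle score as a covariate, 5 without A24 and A25, and 4 without A7, A8 and A31, where the spread of the lone control is taken from the other group. With 1 library left out it lay between 10 (without A26) and 190 (without A12), with 13 without A7, 15 without A25, 14 without A29 and 17 without A31. Total-count scaling called 25 lower and 96 higher genes where TMM called 69 and 36, and moved the median of all genes by 0.23. The number of thioesterases past the threshold was 0, and 1 (Acot8) with total-count scaling, DESeq2's Wald test, the likelihood ratio test and an adjusted p of at most 0.1. It was 0 with each library left out. The number whose groups did not overlap was 1 by TMM CPM, and 2 by TPM and by counts over total counts, both chosen after the data were seen.

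Of 197 log2 fold changes of the thioesterases under alternatives, 176 kept their direction and side of the threshold, 3 of Acot8 passed it and 18 turned sign. With 1 library left out at a time, they ranged for Acot1 from −0.34 (without A7) to 1.22 (without A12), for Acot2 from −0.39 (A7) to 0.19 (A12), for Acot3 from −0.93 (A8) to 1.35 (A12), for Acot4 from −0.64 (A7) to 0.27 (A12), for Acot7 from −0.18 (A12) to 0.33 (A7), for Acot11 from −0.44 (A12) to 0.23 (A7) and for Acot13 from −0.45 (A7) to 0.16 (A8). Acot1 also turned to −0.19 without A31, to −0.069 with Acot2 added and to −1.21 without A7, A8 and A31. Without these 3 libraries, which leaves A12 as the lone control, Acot11 turned to 0.64 and Acot13 to 0.086, Acot4 moved from −0.37 to −1.34, Acot3 from −0.42 to −2.32, Acot2 from −0.10 to −0.65 and Acot7 from 0.07 to 0.81. At an unadjusted p under 0.05 there were then 5 of 10 (Acot1, Acot3, Acot4, Acot7 and Acot8), against 13.3% of all genes, and none passed the threshold. Total-count scaling turned Acot2 to 0.14, Acot11 to 0.022 and Acot13 to 0.020, the muscle score turned Acot11 to 0.17, the top transcript turned Acot3 to 0.23, and leaving out A24 and A25 turned Acot7 to −0.013. None of these turned values passed the threshold, and the cause was not tested. Acot3 gave no value where at least 10 counts in every library were required or A29 or A31 was left out. With the longest transcript as length, mean TPM moved by more than its SD for Acot13 (217) and the order of the 10 genes did not change. Counts were fewest for Acot3, 0 to 34 a library, with an SE of 0.930, beside an SE of 0.681 for Acot1 with 112 to 1806 counts.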
